A study of Mus musculus with 50 samples.

Results

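Immediate early genes are genes whose transcripts appear within minutes of a stimulus, before any new protein has been made. The 10 described here, Fos, Fosb, Jun, Junb, Egr1, Atf3, Klf4, Klf6, Nr4a1 and Ier2, were chosen by name among the 52636 genes of a deposited count table, and all 10 were matched by Ensembl ID. They were followed in 50 RNA-seq libraries of thyroid from male C57BL/6 mice, in 10 groups of 5. The labels give the age as 10 to 14 weeks in 1 place and 10 to 12 weeks in another. Every mouse had a single intraperitoneal antibody dose. The control was RW, an anti-ragweed isotype antibody at 40 mg/kg. The antibody pair aJ1aJ2 blocks the Notch ligands Jag1 and Jag2 (20 mg/kg each), aN1aN2 blocks the receptors Notch1 and Notch2 (5 and 10 mg/kg), and aN1aN2aN3 blocks Notch3 as well (5, 10 and 20 mg/kg). RW, aJ1aJ2 and aN1aN2 were sampled at 15 hours and at 5 days. At 7 days the first set held RW and aJ1aJ2, and the second set held aJ1aJ2 and aN1aN2aN3, with no RW library analysed here. The series text also names thyroid hormone injections, and no label says which mice had them. The labels number the thyroids of a group and say no more of their origin, so p-values measure the spread between these samples.

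The proteins encoded by Fos, Fosb, Jun and Junb pair with each other to form AP-1, a transcription factor that carries many growth and stress signals into the nucleus. Growth factor, calcium, cyclic AMP and stress kinases switch these genes on through factors already present in the cell, and the transcripts then decay quickly. Removing and dissociating a tissue is itself known to switch them on, which is why their spread between replicates is set here beside the differences between treatments.

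Depth ranged from 15271242 to 52835846 counts per library, with a median of 28329764. Of 8 follicle cell markers, 8 had counts in all 50 libraries. So had all macrophage, endothelial, fibroblast and erythroid markers, so detection alone does not check the thyroid label. The summed follicle level ran from 8042 CPM, in RW at 5 days, replicate 3, to 507700 CPM. Tg, the hormone precursor thyroglobulin, took a median of 28.5% of counts, and as little as 0.450% in RW at 5 days, replicate 3. In the second 7-day set it took 1.15 to 2.82% in aJ1aJ2 and 3.73 to 6.50% in aN1aN2aN3. All 9 skeletal muscle markers had counts in all 50 libraries, and together they took from 0.0395 to 12.1% of counts, the highest share again in RW at 5 days, replicate 3. In 14 libraries this share was over 2%. The deposited FPKM values were scaled in 2 blocks. The first block held 30 libraries, RW and aJ1aJ2 at 15 hours and all 7-day groups, and the second held 20, aN1aN2 at 15 hours and all 5-day groups. The comparisons of aN1aN2 with the other groups at 15 hours, and of RW at 5 days with RW at other times, therefore cross the blocks. So does the change in the aN1aN2 effect from 15 hours to 5 days, through its part at 15 hours. In bulk tissue, fewer cells of a type and less RNA per cell cannot be told apart.

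Levels per gene are CPM on the TMM-scaled library size. Per kilobase of the longest annotated transcript, Klf6 was the most abundant of the 10 with a median of 40.9 CPM per kb over the 50 libraries, followed by Jun at 23.4. Nr4a1 (12.2), Junb (11.5) and Ier2 (11.4) came next, with medians close to each other and ranges that overlapped. Klf4 had 8.13, Egr1 5.14, Fos 4.77 and Atf3 2.51 CPM per kb. Fosb was lowest at 0.244 CPM per kb, with 1812 counts over all libraries together. The deposited FPKM rank these genes otherwise, and the length they imply for Atf3 is 46.7 kb, against a transcript of 1.98 kb.

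Promoters of 8 of the 10 genes were matched by symbol in a RefSeq table on GRCm38.p6. The 250 bases before the start of Fos, Atf3 and Junb are shown because Fos and Atf3 hold a short match to the site of CREB and ATF proteins and Junb, another AP-1 gene, holds none. The searched letters were TGACGT on both strands (ACGTCA on the other) and TATAAA on the given strand, both marked in capitals. Fos (chr12:85473640-85473889, plus strand) holds TGACGT beginning 66 bases and TATAAA 33 bases before the start. Atf3 (chr1:191183334-191183583, minus strand) holds ACGTCA beginning 8 bases before the start. Junb (chr8:84978749-84978998, minus strand) holds neither.
Fos: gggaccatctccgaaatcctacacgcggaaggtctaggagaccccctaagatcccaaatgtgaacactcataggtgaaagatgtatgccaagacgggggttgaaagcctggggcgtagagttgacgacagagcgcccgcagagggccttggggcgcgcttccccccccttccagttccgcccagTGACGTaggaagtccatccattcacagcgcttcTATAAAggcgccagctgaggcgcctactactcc
Atf3: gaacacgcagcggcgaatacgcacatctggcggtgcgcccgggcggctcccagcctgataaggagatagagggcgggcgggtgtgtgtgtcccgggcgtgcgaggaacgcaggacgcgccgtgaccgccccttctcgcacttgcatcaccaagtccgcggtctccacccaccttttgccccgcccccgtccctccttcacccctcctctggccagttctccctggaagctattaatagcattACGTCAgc
Junb: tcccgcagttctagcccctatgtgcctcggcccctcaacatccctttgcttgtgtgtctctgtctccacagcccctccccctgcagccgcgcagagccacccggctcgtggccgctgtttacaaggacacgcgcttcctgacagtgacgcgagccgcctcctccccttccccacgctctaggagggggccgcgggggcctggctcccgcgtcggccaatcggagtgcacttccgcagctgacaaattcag
TGACGT on either strand was in 6.47% of 32851 promoter windows of this length and TATAAA in 7.59%. TGANTCA, the AP-1 site, was in 6.75% of windows and the CArG box, the site of serum response factor, in 1.47%. None of the 8 windows held TGANTCA or a CArG box by these letters. Bases farther from the start and variants of these letters were not searched. Egr1 and Ier2 had no window. A match describes the letters only.

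**Figure D1:**
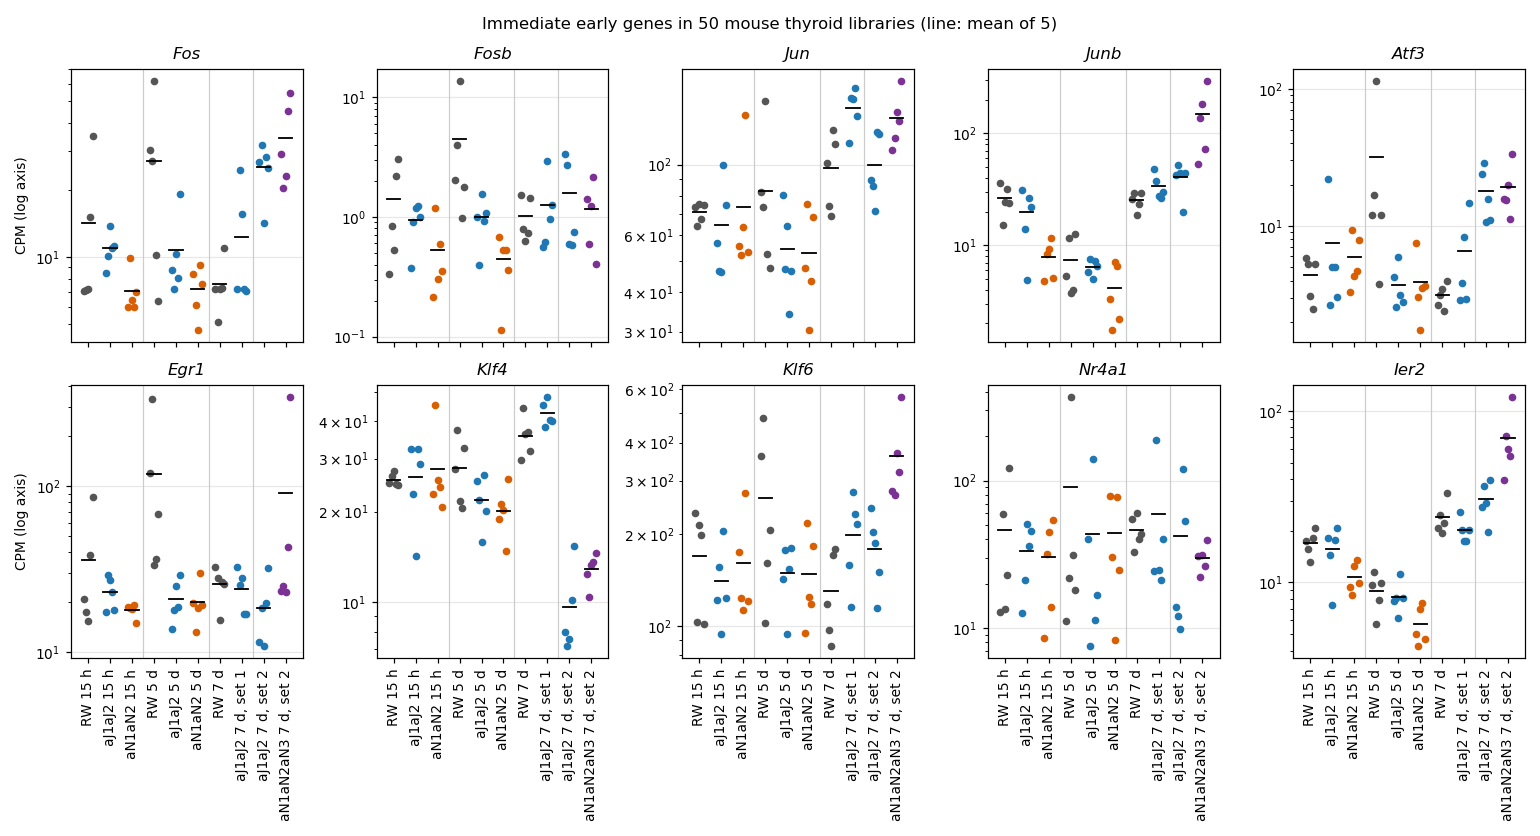
CPM (log axis) of each immediate early gene in the 50 libraries, by group, with 1 point per library and a line at the mean of 5. Single libraries stand far above their groups, such as RW at 5 days replicate 3 for Atf3 (113.9 CPM) and Nr4a1 (369.3 CPM), and Junb and Ier2 are lower in all 3 groups at 5 days than in RW at 7 days.

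The spread between replicates was wide for this family. The SD of log2 CPM within groups, pooled over the 10 groups, had a median of 0.66 over the 10 genes and of 0.34 over the 21546 genes tested in all 50 libraries. It was above the median of all genes for 9 of the 10, and 3 were in the top 10%. Nr4a1, an orphan nuclear receptor, had the widest spread at 1.28, above 97.2% of genes. Atf3, a stress-induced partner of Jun, followed at 0.84, and Egr1, a zinc finger factor downstream of growth factor signalling, at 0.82. Fosb had 0.70, Fos 0.67, Junb 0.66, Klf6 0.53 and Jun 0.44. Ier2 (0.38) and Klf4 (0.32), a zinc finger factor of epithelial and vascular cells, were the steadiest.

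The differences with RW were set against this spread. In the 5 comparisons with RW the median absolute log2 fold change was 0.60 for Nr4a1, which is 0.468 times its SD within groups. For Ier2, Klf4 and Junb it was 0.708, 0.756 and 0.649 times the SD. For the other 6 genes it was above the SD, at 1.97 times for Fosb, 1.53 for Fos, 1.38 for Jun, 1.26 for Atf3, 1.21 for Egr1 and 1.16 for Klf6. The largest difference was 4.74 times the SD for Fosb and 3.12 times for Egr1, both after aN1aN2 at 5 days, and 3.67 times for Atf3 after aJ1aJ2 at 5 days. These ratios use the SD pooled over the 10 groups. They divide an edgeR fold change between fitted means by an SD of log2(CPM + 0.5), so the 2 parts are on different scales. Single high libraries weigh more in such a fold change than in a difference of mean logs, and the ratios are a rough guide only. Within RW at 5 days, the control in those 3 largest differences, the SD was wider, at 1.26 for Fosb, 1.36 for Egr1 and 1.73 for Atf3. Groups took up 5.41% of the variance of Nr4a1 over the 50 libraries. They took up 88.8% for Ier2, 85.3% for Junb and 81.6% for Klf4, beside a median of 54.1% over all genes. The median over the 10 genes was near that, at 58.4%, and Fosb (38.6%), Egr1 (43.6%) and Klf6 (43.1%) lay below it. This share takes in antibody, time, set and block together.

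**Figure D2:**
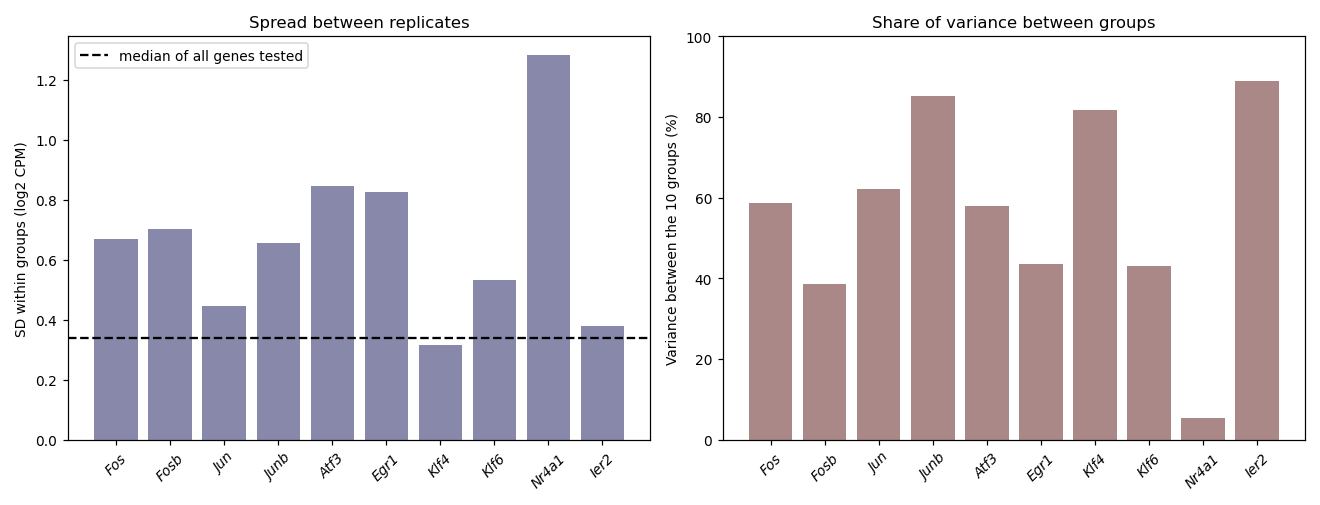
Left, SD of log2 CPM within groups per gene, with the median of all genes tested (0.34) as a dashed line. Right, the share of each gene's variance that lies between the 10 groups, from 5.41% for Nr4a1 to 88.8% for Ier2.

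Junb and Ier2 shared the groups of their lowest and highest medians. The group median of Junb was lowest after aN1aN2 at 5 days (3.31 CPM), followed by RW and aJ1aJ2 at 5 days and aN1aN2 at 15 hours, and highest after aN1aN2aN3 (136.2 CPM), 41.2 times the lowest. The group median of Ier2 was lowest after aN1aN2 at 5 days (4.99 CPM) and highest after aN1aN2aN3 (60.3 CPM), 12.1 times the lowest. Nr4a1 spanned a narrower range of group medians, from 13.9 CPM after aJ1aJ2 in the second 7-day set to 43.7 CPM in RW at 7 days. Within single groups its highest library was up to 33.0 times its lowest, against at most 3.06 times for Ier2 and 2.27 times for Klf4.

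Groups differed in how far their replicates spread. RW at 5 days was the widest, with a median SD over the 10 genes of 1.08, while RW at 7 days was the tightest at 0.361. The other 8 groups lay between 0.426 and 0.577. Without replicate 3 of RW at 5 days its median SD was 0.694.

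Fos in RW at 5 days was 30.3, 26.9, 61.6, 10.2 and 6.40 CPM in replicates 1 to 5. Atf3 in the same libraries was 12.1, 16.7, 113.9, 3.76 and 12.0 CPM. Nr4a1 was 11.2, 21.7, 369.3, 31.2 and 18.1 CPM. Replicate 3 was highest for all 3, and also for Fosb, at 13.6 CPM beside 0.978 to 4.00 in the other 4, and for Jun. Egr1 did not follow it, with 119.5, 335, 33.6, 36.2 and 67.6 CPM, and in Klf6, Junb and Ier2 replicate 3 was the lowest of the group. The genes of this family were therefore not all high in the same libraries.

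Over the 50 libraries the deviations from the group means were described by Pearson's r, which all share 1 scaling per library. Of the 45 pairs of members 4 had r above 0.5, and the median was 0.12. Junb and Ier2 were the closest pair (r = 0.83), followed by Fos and Fosb (0.61), Fos and Nr4a1 (0.53) and Egr1 and Ier2 (0.51). Klf6 and Nr4a1 ran opposite ways (r = −0.66). Junb had r = −0.13 with Fos and −0.03 with Jun, its partners in AP-1.

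**Figure D3:**
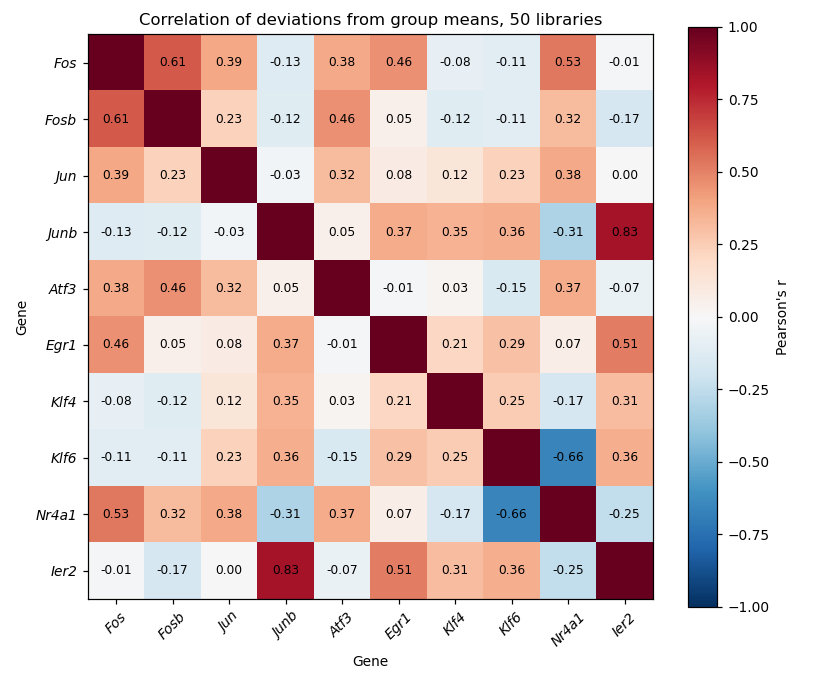
Pearson's r between the deviations of each pair of immediate early genes from their group means over 50 libraries, in colour and number. Junb with Ier2 (0.83) and Fos with Fosb (0.61) are the closest pairs, and Klf6 with Nr4a1 (−0.66) the most opposed.

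Among 21536 other genes, the mean deviation of the 10 members was most like that of Dusp1, a phosphatase that switches off MAP kinases and is itself an early response gene (r = 0.70), then Ppp1r15a, a stress-induced regulator of translation (0.68), Cdk11b (0.66), Metrnl (0.66) and Itga5 (0.65). It was least like Trim36 (−0.68), Fgf1 (−0.67) and Peg13 (−0.67). Of 55 other early response genes tested, 9 had r above 0.5, a value that 0.692% of all genes tested reached.

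Several tissue marker sums moved with some of the members. The muscle sum was the closest for Nr4a1, Klf6, Junb and Ier2, while another sum was closer for each of the other 6. The summed level of the 9 muscle markers had r = 0.85 with Nr4a1 over the 50 libraries (rho = 0.83, and r = 0.82 without the 2 libraries farthest from the median). A muscle term took up 72.8% of the variance of Nr4a1 within groups. Klf6, a zinc finger factor induced on injury, went the other way, with r = −0.71 (rho = −0.69, r = −0.65 without those 2) and 50.3% on the muscle term. For Ier2 and Junb the term took up 20.6% and 19.2%, with r of −0.45 and −0.44, and for the other 6 at most 8.01%. The summed follicle markers had r = −0.76 with Nr4a1, −0.64 with Atf3, 0.55 with Klf6, −0.50 with Fosb and −0.48 with Fos. Nr4a1 also had r = −0.69 with endothelial, 0.63 with fibroblast and 0.63 with erythroid markers. The part of muscle and of the other cell types in these values was not tested.

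**Figure D4:**
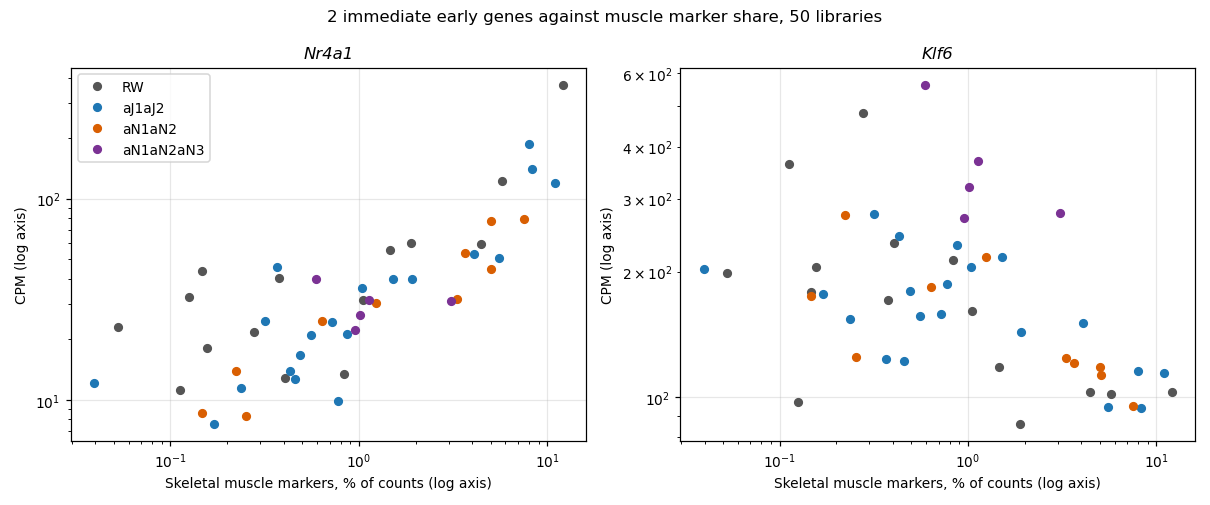
CPM of Nr4a1 (left) and Klf6 (right) against the share of counts taken by 9 skeletal muscle markers, both axes logarithmic, 50 libraries coloured by antibody. Nr4a1 is higher and Klf6 lower in libraries with more muscle counts (r = 0.85 and −0.71 of the deviations from group means).

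At 15 hours aJ1aJ2 and aN1aN2 were each compared with RW. After aJ1aJ2, 0 of the 10 genes passed the threshold against RW (edgeR, Benjamini-Hochberg adjusted p below 0.05, as in all counts below), where 0.573% of all genes did, with 0 at an unadjusted p below 0.05 (6.59% of all genes) and 0 by DESeq2. The fold changes ran from −0.63 for Egr1 to 0.77 for Atf3 on the log2 scale, with a median of −0.33 beside −0.03 over all genes. The Atf3 value rests on replicate 1 of aJ1aJ2 (21.9 CPM, the others 2.67 to 5.00), and without it was −0.15.

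After aN1aN2 at 15 hours, 1 of the 10 genes, Junb, fell, where 1.68% of all genes passed and 0.799% fell. Junb encodes the AP-1 subunit that in many cells restrains Jun. Its level was 35.9, 15.2, 24.4, 31.6 and 23.9 CPM in the 5 RW libraries and 4.83, 8.33, 9.17, 11.6 and 5.06 CPM in aN1aN2. Every aN1aN2 library lay below every RW library (log2 fold change −1.75, SE 0.41, adjusted p = 0.0497), and 5.22% of genes had such a gap. The aJ1aJ2 libraries at 15 hours had 30.9, 13.9, 4.86, 26.7 and 21.9 CPM and overlapped both.

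The Junb call rests close to the threshold and crosses the blocks. It was kept in 2 of 15 fits that left out 1 library, with adjusted p from 0.0101 to 0.140, and lost without any 1 of the 5 RW libraries, of 4 aJ1aJ2 libraries or of 4 aN1aN2 libraries. It was kept in 5 of 10 other settings, with adjusted p from 0.00241 to 0.105, and the sign was the same in all 25. Junb had a median of 29.7 CPM in the first block and 6.16 CPM in the second, and 29 of the 30 libraries of the first block were above all 20 of the second. Within the second block, at 5 days, aN1aN2 against RW gave a log2 fold change of −0.85 (SE 0.44, adjusted p = 0.571). For the comparison at 15 hours, antibody and block cannot be told apart. The exons of Jun overlap those of the antisense gene Junos, and those of Junb overlap those of Prdx2 on the other strand, and the use of strand in counting is not given. Prdx2 had a log2 fold change of 0.03 (adjusted p = 0.945).

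The other 9 genes did not pass after aN1aN2 at 15 hours. Ier2, which encodes a short-lived nuclear protein, was 17.5, 15.6, 13.1, 18.1 and 20.8 CPM in RW and 9.34, 8.46, 12.5, 13.5 and 9.93 CPM after aN1aN2, and the groups overlapped by 1 library (log2 fold change −0.67, adjusted p = 0.186). Egr1 was 20.9, 17.5, 15.4, 38.6 and 86.3 CPM in RW and 18.7, 18.6, 18.4, 19.2 and 15.0 CPM after aN1aN2. The RW libraries 4 and 5 were the high ones, and the same libraries were highest for Fos (15.1 and 35.1 CPM beside 7.03 to 7.19 in the others) and for Fosb. Fosb had −1.38, Fos −1.02 and Egr1 −0.99, with adjusted p of 0.312, 0.252 and 0.255. Between aN1aN2 and aJ1aJ2 at 15 hours 0 members passed, beside 0.13% of all genes, with 2 at an unadjusted p below 0.05 (12.5% of all genes) and 1, Junb, by DESeq2, which called 556 genes. Junb had −1.33 there (SE 0.41, adjusted p = 0.213) and −1.36 by DESeq2 (adjusted p = 0.0484). Of the other early genes, Gadd45b, a growth arrest and stress gene, fell by 1.497 on the log2 scale (adjusted p = 0.0185) and Csrnp1, a nuclear factor, by 0.68 (adjusted p = 0.0358) after aN1aN2. They were 1 of 30 feedback and signalling genes and 1 of 15 other early transcription factors tested, while 0 of 10 other AP-1 family genes and 0 of 15 upstream activators passed (unadjusted p below 0.05 for 4 and 0). Beside these changes, 8 of 8 follicle markers had a log2 fold change below 0 after aN1aN2 and 0 of 8 passed. Their summed level ran from 78810 to 392000 CPM there and from 170600 to 332700 CPM in RW. The muscle share ran from 0.146 to 5.06% there and from 0.0527 to 5.77% in RW. The part of cell makeup was not tested.

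**Figure D5:**
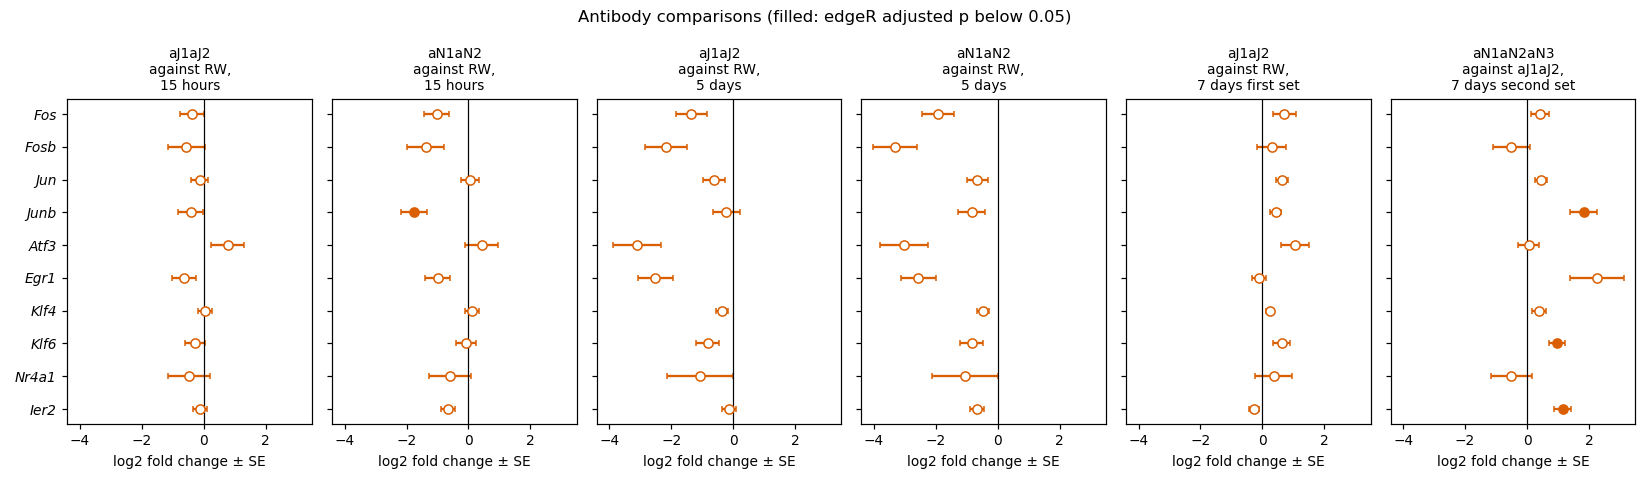
Log2 fold change of the 10 immediate early genes with its SE (bars) in 6 antibody comparisons, with circles filled where the edgeR adjusted p is below 0.05. Filled points are Junb after aN1aN2 at 15 hours and Junb, Klf6 and Ier2 between aN1aN2aN3 and aJ1aJ2 at 7 days.

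At 5 days none of the 10 genes passed the threshold after either antibody pair, while all had log2 fold changes below 0. Both comparisons use the same 5 RW libraries, so their counts are not independent. Over all genes, 44.2% of log2 fold changes were above 0 after aJ1aJ2 and 41.5% after aN1aN2. The medians over the 10 genes were −0.94 after aJ1aJ2 and −0.95 after aN1aN2, beside −0.06 and −0.07 over all genes. After aJ1aJ2, 0 members passed where 0.179% of all genes did, with 5 at an unadjusted p below 0.05 (11.8% of all genes) and 3, Fosb, Egr1 and Atf3, by DESeq2, which called 484 genes. After aN1aN2, 0 members passed where 0% of all genes did (10% had an unadjusted p below 0.05, and DESeq2 called 491 genes), with 7 members at an unadjusted p below 0.05 and 4, the same 3 and Fos, by DESeq2.

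Egr1 did not overlap with RW after either antibody pair at 5 days. Its 5 RW libraries had the values given above, 33.6 CPM at the lowest. The 5 aJ1aJ2 libraries had 13.8, 17.9, 25.0, 18.8 and 29.3 CPM, and the 5 aN1aN2 libraries 19.9, 13.2, 18.5, 30.1 and 19.2 CPM. The lowest RW library was above the highest of either antibody group, a gap also found for 3.75% of genes after aJ1aJ2 and 2.1% after aN1aN2. The log2 fold changes were −2.51 (SE 0.56, adjusted p = 0.113) and −2.57 (SE 0.56, adjusted p = 0.190). DESeq2 gave adjusted p of 0.00067 and 0.000584, and a fit of all 50 libraries gave 0.0149 and 0.0196.

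Fosb, an AP-1 subunit of low abundance here, had 2.02, 4.00, 13.6, 0.978 and 1.78 CPM in RW at 5 days and 0.681, 0.114, 0.530, 0.527 and 0.359 CPM after aN1aN2, with no overlap (log2 fold change −3.33, SE 0.71, adjusted p = 0.190). DESeq2 gave an adjusted p of 0.000198 and the fit of all 50 libraries 0.0113. After aJ1aJ2 it had 0.989, 0.393, 1.57, 0.931 and 1.08 CPM and overlapped RW (−2.18, SE 0.67, adjusted p = 0.226). Atf3 had 4.25, 2.57, 5.90, 3.12 and 2.78 CPM after aJ1aJ2 (−3.10, SE 0.78, adjusted p = 0.134) and 7.46, 3.01, 1.76, 3.53 and 3.64 CPM after aN1aN2 (−3.04, SE 0.78, adjusted p = 0.207). The lowest RW library for Atf3, at 3.76 CPM, lay inside both ranges.

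Replicate 3 of RW, with 12.1% muscle counts, held the highest Fos, Fosb, Atf3 and Nr4a1. The muscle share ran from 0.112 to 12.1% in RW, from 0.170 to 8.33% after aJ1aJ2 and from 0.253 to 7.51% after aN1aN2. Without it the values after aJ1aJ2 and aN1aN2 were −1.58 and −1.53 for Atf3 (adjusted p of 0.108 and 0.168) and −1.13 and −2.30 for Fosb (0.271 and 0.134). Nr4a1 turned from −1.06 and −1.05 to 1.07 and 1.09, and passed in neither case. With a muscle covariate and all libraries Nr4a1 had −0.91 and −1.09 and passed as lower in both (adjusted p of 0.0231 and 0.0265), where 5.77 and 4.22% of all genes passed. Egr1 also passed in both with this covariate, at −2.371 after aJ1aJ2 and −2.345 after aN1aN2 (adjusted p of 0.0321 and 0.0482). Without replicate 3 and with no covariate, Egr1 passed after aJ1aJ2 (−2.73, adjusted p = 0.0312) but not after aN1aN2 (−2.80, adjusted p = 0.0738). Replicate 2 of RW held the highest Egr1 value, and without it Egr1 had −1.62 and −1.68 (adjusted p of 0.250 and 0.487).

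Between aN1aN2 and aJ1aJ2 at 5 days 0 members passed and 0% of all genes did (4.22% at an unadjusted p below 0.05, 78 genes by DESeq2), with 1 member, Ier2, at an unadjusted p below 0.05 and 0 by DESeq2. Ier2 had −0.54 (SE 0.23). The change in the antibody effect from 15 hours to 5 days passed for 0 members after aJ1aJ2, where 0.636% of all genes passed, and for 0 after aN1aN2, where 1.8% did. At an unadjusted p below 0.05 there were 2 and 3 members (11.2 and 14.8% of all genes), and DESeq2 called 1, Atf3, in each, among 485 and 947 genes. Atf3 had −3.86 (SE 0.95, adjusted p = 0.0574) and −3.46 (SE 0.95, adjusted p = 0.0552). Without RW at 5 days replicate 3 these were −2.41 and −1.995 (adjusted p of 0.0928 and 0.146). The aN1aN2 value takes in the comparison with RW at 15 hours, which crosses the blocks.

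At 7 days in the first set, 0 members passed after aJ1aJ2 against RW and 0% of all genes did (11.6% at an unadjusted p below 0.05, 479 genes by DESeq2), with 4 members at an unadjusted p below 0.05 and 0 by DESeq2. Here 8 of 10 fold changes were above 0, against 51.2% of all genes, with a median of 0.39 beside 0.01. Jun, the main activating partner in AP-1, had 101.3, 74.3, 69.3, 128.6 and 115.8 CPM in RW and 117.0, 161.9, 160.2, 173.6 and 141.9 CPM after aJ1aJ2. The groups overlapped (log2 fold change 0.62, SE 0.19, adjusted p = 0.241). Atf3 had 1.06 (SE 0.44, adjusted p = 0.397).

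In the second 7-day set, Junb, Ier2 and Klf6 were higher after aN1aN2aN3 than after aJ1aJ2, and 0 members were lower. They were 3 of 10, where 9.19% of all genes were higher and 19.6% passed in either direction. Junb had 42.5, 51.7, 44.5, 19.9 and 44.3 CPM after aJ1aJ2 and 52.8, 136.2, 183.5, 72.5 and 294.7 CPM after aN1aN2aN3, with no overlap (log2 fold change 1.83, SE 0.44, adjusted p = 0.0169). Klf6 had 243.5, 203.1, 186.4, 114.1 and 150.1 CPM against 277.5, 269.7, 369.5, 320.5 and 564.2 CPM, also with no overlap (0.97, SE 0.26, adjusted p = 0.0235). No overlap was found for 15% of genes. Ier2 had 27.4, 36.7, 29.0, 19.7 and 39.7 CPM against 39.4, 71.3, 60.3, 54.6 and 120.4 CPM, where the lowest aN1aN2aN3 value lay just below the highest aJ1aJ2 value (1.15, SE 0.28, adjusted p = 0.0167).

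Replicate 5 of aN1aN2aN3 was the highest for all 3, and its Egr1 was 343 CPM where the other 4 had 22.9 to 42.7. Without it Junb had 1.43 (adjusted p = 0.0343) and Ier2 0.86 (adjusted p = 0.0359), and Klf6 had 0.76 and no longer passed (adjusted p = 0.0589). Without replicate 3 the Klf6 call was also lost (adjusted p = 0.0538). Egr1 had 2.27 (SE 0.87, adjusted p = 0.0950) with it and 0.59 without. With a correction for GC content Ier2 had 0.89 (adjusted p = 0.0524). Prdx2, which overlaps Junb, had −0.34 (adjusted p = 0.164). Beside this, 2 of 8 follicle markers rose and 1 fell, with a summed level of 11840 to 24650 CPM after aJ1aJ2 and 27420 to 48170 CPM after aN1aN2aN3. The muscle share was 0.0395 to 10.97% and 0.590 to 3.08%. The summed adipocyte markers did not overlap, at 2110 to 3600 CPM after aJ1aJ2 and 195.9 to 980.9 CPM after aN1aN2aN3, and the erythroid markers ran from 906.8 to 5542 and from 196.6 to 1732 CPM. Their part in the result was not tested. Without the libraries over 2% muscle counts, 6 members and 39.4% of all genes passed, and Nr4a1 turned from −0.51 to 1.31.

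Of the other early genes, more rose than fell in that comparison, where over all genes 1696 rose and 1918 fell. Of 9 other AP-1 family genes tested 4 rose and 0 fell, of 14 other early transcription factors 5 rose and 0 fell, of 30 feedback and signalling genes 11 rose and 0 fell, and of 15 upstream activators 1 rose and 1 fell. The unadjusted p was below 0.05 for 4, 5, 17 and 5 of them, and for 6559 of all 18450 genes tested. The 5 with the smallest adjusted p were Fosl2, a Fos relative (log2 fold change 2.04, adjusted p = 0.00102), Cebpd, an acute phase factor (2.45, 0.00172), Klf10, a TGF-beta response factor (1.71, 0.00199), Mafk, a small Maf factor (1.27, 0.00252), and Zfp36, which speeds the decay of early transcripts (2.03, 0.0027).

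The same antibody in different sets, or the control at different times, gave differences as well. The labels give the aJ1aJ2 sets the same dose and time, and whatever else differed between the sets cannot be told apart. Between the aJ1aJ2 sets at 7 days 5 members passed, where 59.6% of all genes did. Klf4 had 45.1, 38.2, 48.0, 40.3 and 40.0 CPM in the first set and 7.98, 7.19, 7.55, 10.2 and 15.4 CPM in the second, with no overlap, as for 44.6% of genes (log2 fold change −2.05, SE 0.21, adjusted p = 9.25e-06). Jun was also lower (−0.52, adjusted p = 0.0366), while Atf3 (1.55, adjusted p = 0.0186), Fos (1.12, adjusted p = 0.0225) and Ier2 (0.69, adjusted p = 0.0107) were higher. The Jun call was lost with the GC correction (−0.14, adjusted p = 0.490), with a replicate block, in the fit of all 50 libraries and without any 1 of 5 libraries (replicates 3 and 4 of the first set and 1, 2 and 3 of the second). Fos lost its call without any 1 of 4 libraries (replicates 1, 4 and 5 of the first set and 2 of the second), with adjusted p from 0.0506 to 0.0640. Atf3 lost it without the libraries over 2% muscle counts (1.65, adjusted p = 0.0764).

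Among RW groups, 3 members passed between 5 days and 15 hours, where 7.02% of all genes did. Junb was lower, at 5.28, 11.6, 3.71, 3.95 and 12.6 CPM at 5 days, below all 5 libraries at 15 hours (log2 fold change −1.78, SE 0.35, adjusted p = 0.0105), as was Ier2 (−0.89, SE 0.20, adjusted p = 0.0193). The gap between groups was found for 10.1% of genes. Atf3 was higher (2.86, SE 0.71, adjusted p = 0.0295), a call lost without any of the 5 RW libraries at 15 hours (adjusted p 0.0566 to 0.0789). Without replicate 3 of RW at 5 days it was 1.39 (adjusted p = 0.0151). Between 7 days and 5 days 4 members passed, where 14.3% of genes did, namely Ier2 (1.43, adjusted p = 0.000388), Junb (1.76, adjusted p = 0.00423), Atf3 (−3.32, adjusted p = 0.00781) and Egr1 (−2.22, adjusted p = 0.0340). Junb at 7 days was 25.9, 29.2, 18.8, 23.3 and 29.3 CPM, above every library at 5 days. Ier2 at 7 days was 20.9, 24.7, 19.5, 22.3 and 33.3 CPM, also above every library at 5 days, and Egr1 was below, with 15.2% of genes showing such a gap. Without replicate 3 at 5 days Atf3 had −1.85 (adjusted p = 0.00207). Egr1 kept its call in 8 of 15 fits that left out 1 library, and without replicate 2 at 5 days it had −1.32 (adjusted p = 0.111). Between 7 days and 15 hours, both in the first block, 0 members passed where 1.26% of genes did, with 2 at an unadjusted p below 0.05 (10.7% of all genes) and 0 by DESeq2. Klf4 was higher in all 5 libraries at 7 days (0.51, SE 0.16, adjusted p = 0.176), a gap found for 6.19% of genes. Junb had −0.02 there (adjusted p = 0.994) and Ier2 0.53 (adjusted p = 0.296).

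The transcripts of Junb and Ier2 are rich in GC (62.6 and 60.9%, above 98.4 and 97.1% of genes tested), whereas Klf6 has 42.4%. Over all genes above 60% GC the median log2 fold change was −0.47 between RW at 5 days and 15 hours, and 0.79 between 7 days and 5 days. It was −0.205 after aN1aN2 against RW at 15 hours, beside 0.01 over all genes tested. In comparisons within the first block it ran from −0.45 (aJ1aJ2 second set against first) to 0.29 (RW at 7 days against 15 hours). With a correction for GC content, Junb between RW at 5 days and 15 hours had −1.22 (adjusted p = 0.0635) and Ier2 −0.43 (adjusted p = 0.246), and neither passed. Between RW at 7 days and 5 days, Junb then had 0.83 (adjusted p = 0.142), while Ier2 still passed (0.71, adjusted p = 0.0335). After aN1aN2 at 15 hours Junb had −1.53 with the correction and passed (adjusted p = 0.0380). The GC-rich genes Jund (67.1%), of the AP-1 family, and Ier5l (63.8%) had higher levels in the first block as well. The median was 106.5 against 15.7 CPM for Jund and 5.66 against 1.09 CPM for Ier5l. Groups within the first block differed too. Their medians ran from 43.3 CPM (RW at 15 hours) to 256.0 CPM (aN1aN2aN3) for Jund. For Ier5l they ran from 3.28 CPM (RW at 15 hours) to 10.0 CPM (RW at 7 days). The part of GC content in the levels was not tested.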

How the data were processed

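Total RNA of 50 mouse thyroids was sequenced as single-end reads of 50 bases, per the labels' protocols. The authors deposited read counts per gene, without normalization, and FPKM values (per length and depth); per the submitters' processing notes GSNAP and limma were used, with no role or version. The sources used here do not give the genome build, annotation or strand use. All columns matched a library (0 unmatched). The members and gene lists were chosen with earlier results of these data known. Counts were tested with edgeR 4.0.16 in R 4.3.3 (TMM, filterByExpr with minimum count 10 and minimum total 15, robust quasi-likelihood), with Benjamini-Hochberg adjusted p below 0.05 over all genes tested. Groups of 1 time or set shared a fit, and so did the RW groups and the 30 libraries of the time interactions. CPM used TMM-scaled library sizes, and spread is the SD of log2(CPM + 0.5) within groups. Alternatives were RLE size factors, DESeq2 1.42.0, no count filter, other sets of libraries, Tg left out of library sizes, a muscle covariate, a replicate block, and, added after seeing the data, leaving out libraries over 2% muscle counts and a GC content offset. The members were named in every comparison. Other early genes were named as the at most 5 with the smallest adjusted p per comparison, and the 5 and 3 genes most and least like the members' mean deviation were named too. Replicates were checked for duplicates (smallest chi-square of 100 pairs 17.2 per degree of freedom). Fits were tested on simulated data. FPKM values were used only to find the scaling blocks and the length behind them.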

Additional observations from a re-analysis of the deposited data

Results flagged for a closer look

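In each of 100 groups of 5 libraries (10 genes in 10 groups), the highest and lowest library was compared with its nearest neighbour, and 8 stood apart by Dixon's 95% critical value for 5 samples. Chance marks about 1 in 20 groups. Nr4a1 was 369.3 CPM in RW at 5 days, replicate 3, where the next library had 31.2 CPM, and that library had 12.1% muscle counts. Nr4a1 was also 188.0 CPM in aJ1aJ2 at 7 days, first set, replicate 2, where the next had 39.9 CPM, and the muscle share was 8.03%. The part of muscle in both values was not tested. Egr1 was 343.0 CPM in aN1aN2aN3 replicate 5, beside 42.7 CPM for the next library, and this library was also the highest for Junb, Klf6 and Ier2. After aN1aN2 at 15 hours, Jun was 142.8 CPM in replicate 4 beside 63.8 CPM, Klf4 was 45.2 CPM in replicate 2 beside 25.5 CPM, and Egr1 was 15.0 CPM in replicate 5, below the next lowest at 18.4 CPM. Atf3 was 21.9 CPM in aJ1aJ2 at 15 hours, replicate 1, beside 5.00 CPM. Junb was 19.9 CPM in aJ1aJ2 at 7 days, second set, replicate 4, below the next lowest at 42.5 CPM, in a library with 10.97% muscle counts.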

How the results depend on the processing

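The number of members past the threshold changed most with the fit and the muscle libraries. For aN1aN2 against RW at 15 hours (1 member, Junb), it was 0 without libraries over 2% muscle counts, with Tg left out of library sizes, with no filter on counts and with RLE scaling. The muscle limit left out 3 libraries of aN1aN2, 2 of RW and 1 of aJ1aJ2 there. Junb then had a log2 fold change of −1.88 (edgeR adjusted p = 0.105), from fewer libraries. For aJ1aJ2 against RW at 5 days (0) it was 4 with a muscle covariate, 2 without the muscle libraries, 3 by DESeq2 and 2 in a fit of all 50 libraries. For aN1aN2 against RW at 5 days (0) it was 5, 4 and 4 with the covariate, by DESeq2 and with all 50. It was 1 by DESeq2 for aN1aN2 against aJ1aJ2 at 15 hours (0), and 6 without the muscle libraries for aN1aN2aN3 against aJ1aJ2 (3). For RW at 5 days against 15 hours (3) it was 0 with only those groups and 1 with the GC offset. For RW at 7 days against 15 hours (0) it was 1 with only those groups and 1 without the muscle libraries. For 7 days against 5 days (4) it was 8 without the muscle libraries and 7 with all 50. Each interaction (0) gave 1 with the covariate, by DESeq2 and with all 50. The share of all genes past the threshold moved with the setting too, as given above for aN1aN2aN3 against aJ1aJ2. The counts here and in the paragraphs below stand without that share, so they show nothing particular to the members. The causes were not tested. Nr4a1 turned without the muscle libraries, from −0.51 to 1.31 (adjusted p = 0.000999) for aN1aN2aN3 against aJ1aJ2, and from −0.94 to 1.18 (adjusted p = 0.0103) for RW at 7 days against 5 days.

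Leaving out 1 library gave 0 to 2 members for aN1aN2 at 15 hours, 0 to 1 for aJ1aJ2 at 5 days, 2 to 4 for aN1aN2aN3 against aJ1aJ2, 3 to 6 between the aJ1aJ2 sets, 2 to 4 for RW at 5 days against 15 hours, 3 to 6 for RW at 7 days against 5 days and 0 to 1 for each interaction. It gave 0 throughout for the other 6 comparisons. In all, 3468 of 3600 values of single genes kept their side of the threshold, 58 lost a call and 72 gained one. The sign turned in 2 where a call was involved. Values with no call in either fit were counted as kept whatever their sign. Some of these turned, such as Nr4a1 after both antibody pairs at 5 days without replicate 3 of RW. The median spread ran from 0.556 to 0.686 over its settings.

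The labels do not say whether replicate numbers pair the samples, and a check by correlation was mixed. The mean over same numbers ran from −0.232 (RW and aJ1aJ2, first 7-day set) to 0.44 (RW and aN1aN2 at 15 hours). Of 60 same-numbered pairs 26 had a correlation of deviations over 0.1, in 0 of 12 group pairs for all 5, and 13 libraries correlated best with their own number. With a replicate block 0 members passed for aN1aN2 against RW at 15 hours, 2 for aN1aN2aN3 against aJ1aJ2, 4 between the aJ1aJ2 sets, 2 for RW at 5 days against 15 hours and 3 for RW at 7 days against 5 days. Depth limits Fosb most, at a median of 0.244 CPM per kb. RLE moved the median of all genes by −0.091 to 0.044 on the log2 scale.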
